A study of Mus musculus with 12 samples.

Results

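Tumours of vehicle-treated mice kept at a simulated altitude of 3500 m (HC) were compared with tumours of vehicle-treated mice kept at ambient altitude, about 1500 m (MC), 3 tumours in each group. These are 6 of the 12 libraries of the series, and the other 6 came from mice given IOX2. Genes with at least 10 counts in 3 or more of the 6 libraries were tested, which left 14774 of the 35434 genes in the table. The tumours were grown from 1000000 cells of 4T1, a mouse triple-negative mammary carcinoma line, placed under the skin of the back of female BALB/c mice aged 6 to 8 weeks. HC mice lived in a hypobaric chamber, whereas MC mice lived at the altitude of Lanzhou, so altitude and chamber housing cannot be told apart. Both groups received vehicle by intraperitoneal injection on each of 10 days from day 9 after the cells were placed, which followed 3 days of acclimatization, and tumours were taken on study day 22. HI and MI mice had the same housing as HC and MC mice and received IOX2 at 10 mg/kg, an inhibitor of the oxygen sensor PHD2. Each library is 1 tumour from 1 mouse, and all tumours come from a single cell line implanted under the skin rather than in the mammary gland.

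The 6 libraries held 31661685 to 39613623 counts, the lowest in HC1, and mitochondrial genes took 1.84% to 2.09% of them. All 16 epithelial markers of 4T1 cells were expressed, among them the keratin genes Krt8 at a mean of 705 FPKM in HC tumours and 615 FPKM in MC tumours and Krt18 at 940 and 888 FPKM (FPKM being fragment counts scaled for gene length and library size). Triple-negative tumours are classed by the receptors that Pgr, Esr1 and Erbb2 encode. Pgr had at most 2 counts in an HC tumour and 14 in an MC tumour. Esr1 averaged 2.18 FPKM in HC tumours and 2.90 FPKM in MC tumours, and Erbb2 averaged 17.8 and 19.6 FPKM. These are RNA levels, and receptor protein was not measured here. The summed level of the epithelial markers overlapped between the groups, at 5043 to 5583 CPM (counts scaled to library size) in HC tumours and 4870 to 5271 CPM in MC tumours. In such bulk samples, fewer cells of a type and less RNA per cell cannot be told apart. The number of 3 tumours a group limits an exact permutation test of 1 gene to p = 0.1, so genes were tested with edgeR's quasi-likelihood model, which shares its estimate of spread across genes.

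When oxygen is plentiful, PHD enzymes, encoded by the Egln genes, mark the alpha subunits of hypoxia-inducible factors (HIFs) for destruction, and when oxygen falls the subunits persist and switch on genes of glycolysis, vessel growth and iron uptake. At altitude, the body also releases erythropoietin and stress hormones, and tumour macrophages are known to change their surface receptors and secreted proteins in low oxygen. 4T1 tumours recruit many myeloid cells, both macrophages and neutrophils.

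At an adjusted p under 0.05 over all genes, 63 genes were called, 37 higher and 26 lower in HC tumours, or 0.426% of those tested (0.25% higher and 0.176% lower). Genes called higher included Chil3 and Mrc1 of macrophages, Angptl4 and Acaa2 of lipid use, Asns and Shmt2 of asparagine and serine use, Fosl1 and Egr1 of the immediate-early response, and Hba-a1 and Hbb-bs of hemoglobin. Genes called lower included Cx3cr1, Lef1, Stc1, Col4a5 and Pdgfc. No list was tested for enrichment. Counts of called list members below are to be read beside 0.25% of all genes called higher and 0.176% called lower. The groups did not overlap for any of the 63 genes, whereas over all genes 22% had groups that did not overlap. The calls were made from the same values, so this is not separate support for them. The smallest adjusted p was 0.00439, and 16.1% of genes had an unadjusted p under 0.05.

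The count of calls depended on the model and on single libraries. Same-numbered HC and MC tumours deviated together. A block for that number gave 436 calls, 259 higher and 177 lower (2.95%, 1.75% and 1.2% of genes), which included all 63. The labels name no pairing and the block rests on these same values, so calls made with it are not separate support. DESeq2 called 831 genes, 427 higher and 404 lower, which also included all 63 (5.62%, 2.89% and 2.73% of genes), and limma-voom called 44, all of them among the 63 (0.298%). Fitting all 12 libraries, whose spread is then shared with tumours of mice given IOX2, gave 0 calls, with 11.9% of genes at an unadjusted p under 0.05 and a smallest adjusted p of 0.144. Without HC1, HC2 or HC3, 24, 42 or 44 genes were called, and without MC1, MC2 or MC3, 15, 7 or 6. Chil3 was called without any 1 of the 6 libraries, and Fosl1 and Stc1 were called in 5 of these 6 fits. None of the 63 genes changed direction under any setting tried.

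**Figure D1:**
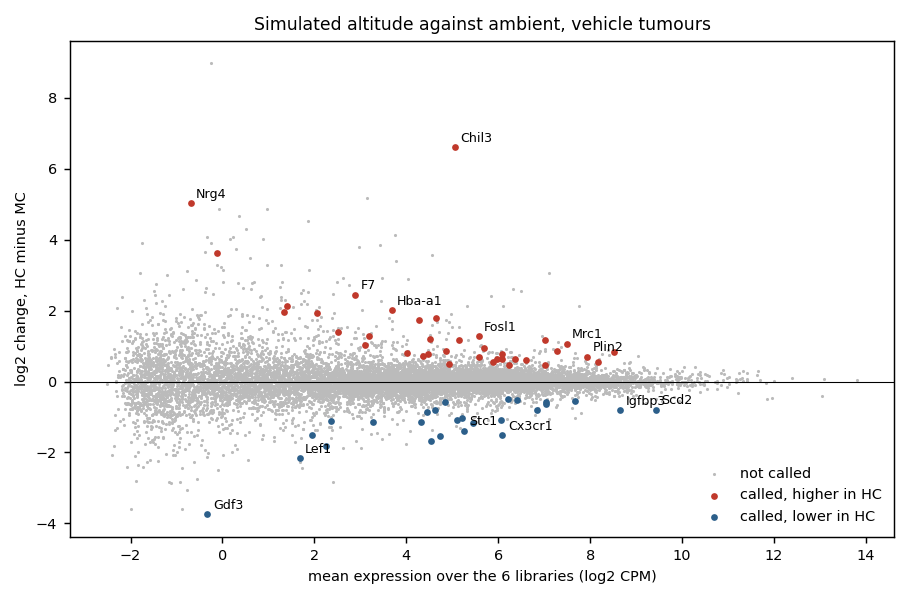
Each point is 1 of 14774 genes, with its mean expression over the 6 libraries on the x axis (log2 CPM) and its log2 change, HC minus MC, on the y axis. The 37 genes called higher in HC are red and the 26 called lower are blue, and Chil3 stands apart from the other called genes at a log2 change of 6.62.

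The largest change of any called gene was that of Chil3, which encodes a chitinase-like protein secreted by macrophages and neutrophils. Its levels were 86.5, 37.2 and 73.8 CPM in HC tumours, against 0.505, 1.09 and 0.407 CPM in MC tumours. The lowest HC tumour was thus far above the highest MC tumour, and the log2 change was 6.62 (SE 0.44, adjusted p = 0.00439). Mrc1, the mannose receptor gene of tissue macrophages, was at 272, 219 and 238 CPM in HC tumours and 127, 117 and 103 CPM in MC tumours. The groups did not overlap, with a log2 change of 1.07 for Mrc1 (SE 0.11, adjusted p = 0.0307). F7 encodes coagulation factor VII, which starts clotting together with tissue factor. It was at 13.0, 13.1 and 11.3 CPM in HC tumours and 1.84, 3.34 and 1.63 CPM in MC tumours. Each HC tumour exceeded each MC tumour, with a log2 change of 2.46 (SE 0.27, adjusted p = 0.0307).

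Further genes expressed in myeloid cells were called higher. Atp6v0d2, a proton pump subunit of macrophages and osteoclasts, averaged 8.29 ± 0.95 CPM in HC tumours and 3.14 ± 0.65 CPM in MC tumours (SD, n = 3 each), a log2 change of 1.40 (adjusted p = 0.0381). Tfec, a transcription factor gene of the macrophage lineage, was at 11.5, 11.1 and 11.7 CPM in HC tumours and 4.999, 6.66 and 5.23 CPM in MC tumours (log2 1.02, adjusted p = 0.0403). These values were close together within each group. Cd300lf, an inhibitory receptor gene of myeloid cells, rose by 0.51 and Wfdc17, a small secreted protein gene of activated macrophages, by 0.79 (adjusted p = 0.04 and 0.0499). Tfec, Cd300lf and Wfdc17 fall outside the rule for named genes and were chosen after their values were seen.

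Cx3cr1, Cd72 and Gpr183 fell. Cx3cr1 encodes the fractalkine receptor of patrolling monocytes and of many tissue macrophages. Its levels were 44.1, 33.9 and 27.6 CPM in HC tumours and 95.1, 80.4 and 127 CPM in MC tumours, with no overlap and a log2 change of -1.52 (SE 0.21, adjusted p = 0.0318). Cd72, an inhibitory receptor gene of B cells and some macrophages, was at 10.2, 13.4 and 9.57 CPM in HC tumours and 39.4, 23.3 and 44.1 CPM in MC tumours. All HC tumours were lower, and the log2 change of Cd72 was -1.69 (SE 0.24, adjusted p = 0.035). Gpr183, a receptor for oxysterols that guides immune cells within tissue, averaged 3.22 ± 0.36 CPM in HC tumours and 7.01 ± 0.35 CPM in MC tumours (SD, n = 3 each), a log2 change of -1.12 (adjusted p = 0.0408).

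The 18 markers of macrophages and monocytes had log2 changes on both sides of 0. Chil3 and Mrc1 were called higher, against 0.25% of all genes, and 0 were called lower. A negative log2 change was found for 12 of the 18, and the median was -0.22. The summed level of the markers was lower in every HC tumour, at 7409 to 8080 CPM, than in every MC tumour, at 9105 to 10057 CPM. The mean log2 score of the 18 markers, in which each gene counts alike, ran the other way, at 0.438, 0.192 and 0.048 in HC tumours and -0.116, -0.295 and -0.267 in MC tumours. The direction for the list thus depended on the summary: the sum and the median pointed lower in HC tumours and the mean score higher. Chil3, whose log2 change of 6.62 was the highest of the 18, enters that score, and a score without Chil3 was not computed. The median was -0.34 to -0.05 with 1 tumour left out, nearest to 0 without MC3. Of the markers with the smallest p, the apoptotic-cell receptor gene Mertk was at 28.2, 14.9 and 21.1 CPM in HC tumours and 8.94, 9.72 and 7.88 CPM in MC tumours (log2 1.27, adjusted p = 0.0611). The hemoglobin scavenger receptor gene Cd163 was at 58.0, 36.2 and 40.6 CPM in HC tumours and 23.6, 11.9 and 5.13 CPM in MC tumours (log2 1.73, adjusted p = 0.133). Arg1, the arginine-degrading enzyme gene of alternatively activated macrophages, had a log2 change of 0.88, and Spp1, which encodes osteopontin, one of -0.48 (adjusted p = 0.141 and 0.135). The chemokine receptor gene Ccr2 was at the low end, with a log2 change of -0.62 (adjusted p = 0.439). With the replicate block 5 markers were called higher, which are Chil3, Mrc1, Mertk, Cd163 and Arg1, against 1.75% of all genes.

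**Figure D2:**
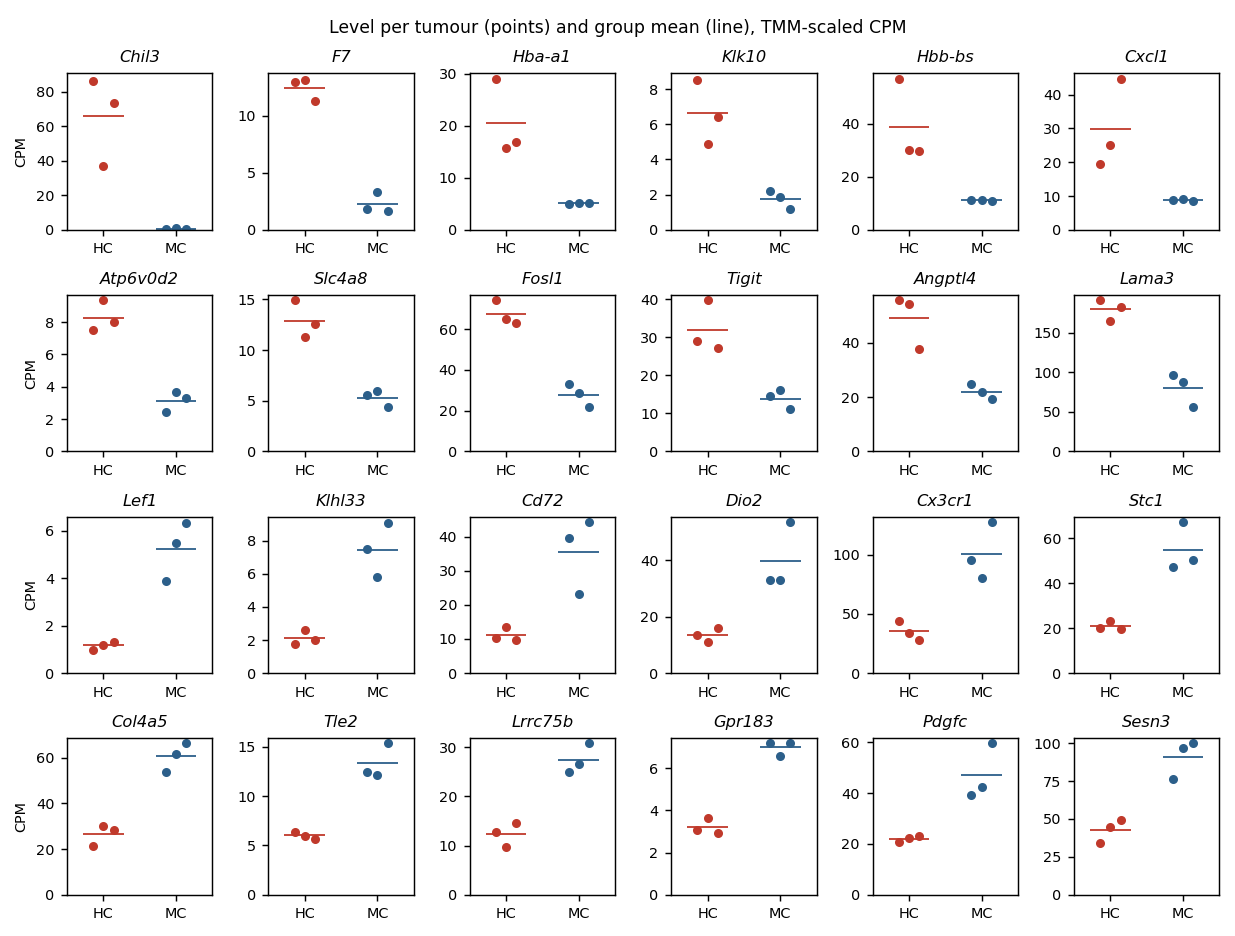
Each panel shows 1 of the 24 genes named by rule, with the level in each of 3 HC tumours (left) and 3 MC tumours (right) as points in TMM-scaled CPM and the group mean as a line, on an axis that starts at 0. Panels in the upper rows are genes that rose and panels in the lower rows are genes that fell. Groups that do not overlap were a condition of the rule, so their separation here is not a result.

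Angptl4, Plin2, Acaa2 and Acsbg1, which act in lipid handling, were called higher, and the desaturase gene Scd2 lower. Angptl4, a secreted inhibitor of lipoprotein lipase whose gene responds to HIF and to fatty acids, was at 55.8, 54.2 and 37.9 CPM in HC tumours. It was at 24.7, 21.8 and 19.4 CPM in MC tumours, so that the groups were separate and the log2 change was 1.17 (SE 0.16, adjusted p = 0.0318). Plin2, which encodes the protein coat of lipid droplets, was at 295, 281 and 338 CPM in HC tumours and 183, 183 and 194 CPM in MC tumours. This was a log2 change of 0.70 (SE 0.09, adjusted p = 0.0307). Acaa2, the thiolase gene of the last step of mitochondrial fatty acid oxidation, was at 81.8, 82.7 and 81.8 CPM in HC tumours and 49.97, 54.9 and 54.1 CPM in MC tumours. The HC values lay within 1 CPM of each other, and Acaa2 rose by 0.63 (SE 0.07, adjusted p = 0.0307).

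Acsbg1, a gene for an enzyme that activates long fatty acids, was at 205, 200.2 and 197 CPM in HC tumours and 118, 123 and 89.4 CPM in MC tumours (log2 0.86, adjusted p = 0.0318). Scd2, which encodes a desaturase that makes monounsaturated fatty acids, was at 446, 556 and 514 CPM in HC tumours and 832, 918 and 884 CPM in MC tumours. The log2 change of Scd2 was -0.80 (SE 0.10, adjusted p = 0.0307), and its highest HC tumour was below its lowest MC tumour. Its relative Scd1, expressed in fat, was at 684, 317 and 53.3 CPM in HC tumours and 91.3, 63.6 and 84.2 CPM in MC tumours, where the groups overlapped (log2 2.14, adjusted p = 0.204). Plin2 and Acsbg1 were also chosen after their values were seen.

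Of 19 genes of fatty acid oxidation, 17 were tested, 1 was called and 13 had a positive log2 change, with a median of 0.07 against -0.00211 over all genes. Behind Acaa2, the medium-to-long chain dehydrogenase gene Acadl had a log2 change of 0.34 (adjusted p = 0.0902). The carnitine palmitoyltransferase gene Cpt1a, which admits fatty acids to mitochondria, was at 189, 112 and 205 CPM in HC tumours and 93.4, 67.8 and 105 CPM in MC tumours (log2 0.93, adjusted p = 0.126). Cpt1a was called with the replicate block. Etfa, Slc25a20 and Etfdh, genes for electron and carnitine carriers, had log2 changes of 0.20, 0.34 and 0.15 and were not called. The lowest change in the list was that of Acads, at -0.07. Of 23 genes of cholesterol synthesis, 0 were called in either direction.

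Fat-cell markers were high in 2 of the 3 HC tumours. The summed level of the 15 markers was 1056 and 770.1 CPM in HC1 and HC2 but 151 CPM in HC3, against 171, 107 and 142 CPM in MC1, MC2 and MC3. All 12 tested markers had a positive log2 change with a median of 2.58, and 0 were called. The fatty acid carrier gene Fabp4 was at 271, 148 and 42.8 CPM in HC tumours and 27.7, 21.2 and 30.3 CPM in MC tumours (log2 2.54, adjusted p = 0.102). The fatty acid receptor gene Cd36, the resistin gene Retn and the adiponectin gene Adipoq had log2 changes of 2.12, 4.54 and 2.93 (adjusted p = 0.102, 0.104 and 0.139). HC3, whose marker sum lay within the MC range, had the highest Plin2 level of the 6 tumours. Its Acaa2 level was like that of HC1 and HC2, while its Angptl4 level was the lowest of the HC tumours. The part of fat cells in the levels of Plin2, Acaa2 and Angptl4 was not tested. Nrg4, which encodes a growth factor released by fat, was called at very low levels, 1.14, 1.66 and 0.81 CPM in HC tumours against 0.0253, 0.0506 and 0.0254 CPM in MC tumours (adjusted p = 0.0307). Nrg4 was chosen after its values were seen, and its MC levels lay under the 3-count floor of 0.0757 to 0.077 CPM, so no fold is given. Markers of skeletal muscle, the tissue next to a tumour under the skin, summed to 55.6 to 373 CPM in HC tumours and 49.5 to 253 CPM in MC tumours, highest in HC1 and MC1.

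Asns, Shmt2, Ctps and Odc1, enzyme genes of amino acid, nucleotide and polyamine synthesis, were called higher, and Cth lower. Asns, the asparagine synthetase gene, was at 60.3, 57.2 and 61.1 CPM in HC tumours and 38.9, 37.4 and 33.9 CPM in MC tumours, a log2 change of 0.70 (SE 0.08, adjusted p = 0.0307). Shmt2, which takes 1-carbon units from serine in mitochondria, was at 154, 150.4 and 146 CPM in HC tumours and 107, 109.5 and 111 CPM in MC tumours. It rose by 0.46 (SE 0.06, adjusted p = 0.0318). Ctps, the CTP synthase gene, and Odc1, the first enzyme gene of polyamine synthesis, rose by 0.47 and 0.55 (adjusted p = 0.0318 each). Cth, whose enzyme makes cysteine from cystathionine, was at 15.1, 15.4 and 15.9 CPM in HC tumours and 24.1, 29.0 and 31.6 CPM in MC tumours. Its log2 change was -0.87 (SE 0.11, adjusted p = 0.0318). Ctps, Odc1 and Cth were chosen after their values were seen.

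Asns and Shmt2 belong to a list of 18 genes that answer ATF4, the transcription factor of amino acid shortage and of the integrated stress response. Of these, 16 were tested, and 2 were called higher and 0 lower, against 0.25% and 0.176% of all genes. A positive log2 change was found for 14, and the median was 0.25. The list does not hold Cth, called lower, or the cystine importer gene Slc7a11, which had a log2 change of -1.31 and was not called (adjusted p = 0.144). Its counts are thus not a count of all genes that answer ATF4. The serine synthesis gene Psat1 was at 99.0, 101 and 92.1 CPM in HC tumours and 64.0, 67.6 and 50.1 CPM in MC tumours (log2 0.69, adjusted p = 0.0569). Chac1, whose enzyme degrades glutathione, had a log2 change of 1.219 (adjusted p = 0.102), Phgdh one of 0.28 and Slc7a1 one of 0.22. Cebpb had the lowest, -0.28. With the replicate block Psat1 and Chac1 were called as well, 4 of 16 in all, against 1.75% of all genes. The 18 chaperone and folding genes of the unfolded protein response, another branch of stress, had a median of 0.01 with 0 called in either direction, also with the block.

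The promoter of Asns is shown because it holds an exact copy of the amino acid response element TGATGAAAC, the sequence through which ATF4 is known to act on this gene. The window, 250 bases before to 50 bases after the start of the gene, is chr6:7693160-7693459 on the minus strand of GRCm38.p6, from RefSeq, with the element in capitals. The match began 23 bases before the start. Searched on both strands, this element was found in 21 of 11508 tested genes with a promoter in the table (0.182%), and in 1 of 29 genes called higher and 0 of 17 called lower that had one.
Asns: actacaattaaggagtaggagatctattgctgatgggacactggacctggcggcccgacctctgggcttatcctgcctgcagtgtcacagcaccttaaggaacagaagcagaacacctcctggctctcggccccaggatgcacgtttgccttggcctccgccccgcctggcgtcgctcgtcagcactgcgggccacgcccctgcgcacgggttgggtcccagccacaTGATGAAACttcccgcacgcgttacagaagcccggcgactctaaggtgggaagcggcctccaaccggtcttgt
The promoter of Plin2, chr4:86670010-86670309 on the minus strand of the same build, is shown for the core of the hypoxia response element, ACGTG, which HIFs bind. Its capitals mark a palindrome that holds this core on both strands, beginning 4 bases before the start. The core is common: 28.4% of tested genes with a promoter held it, as did 9 of 29 genes called higher (31%) and 3 of 17 called lower (17.6%).
Plin2: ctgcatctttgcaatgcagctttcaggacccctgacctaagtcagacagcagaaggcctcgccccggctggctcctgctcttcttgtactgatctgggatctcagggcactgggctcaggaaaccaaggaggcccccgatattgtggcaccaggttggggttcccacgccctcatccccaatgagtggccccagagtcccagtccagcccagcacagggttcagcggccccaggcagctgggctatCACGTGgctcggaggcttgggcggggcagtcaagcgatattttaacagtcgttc

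Of genes that respond within minutes to growth and stress signals, 2 rose in HC tumours. Fosl1, which encodes the AP-1 subunit Fra-1, was at 74.1, 64.8 and 63.0 CPM in HC tumours and 33.0, 28.6 and 21.8 CPM in MC tumours. The groups were far apart, and the log2 change was 1.28 (SE 0.15, adjusted p = 0.0307). Egr1, a zinc-finger transcription factor gene induced by ERK signalling, was at 76.2, 66.4 and 60.1 CPM in HC tumours and 39.1, 36.3 and 29.7 CPM in MC tumours. It rose by 0.95 (SE 0.13, adjusted p = 0.0318). Of 21 immediate-early genes, 2 were called higher and 0 lower, against 0.25% and 0.176% of all genes. All 21 had a positive log2 change, and the groups did not overlap for 9, all higher, against 11% of all genes. The median of the list was 0.28.

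Behind Fosl1 and Egr1, the mRNA-decay factor gene Zfp36 was at 57.0, 56.4 and 54.3 CPM in HC tumours and 42.4, 41.8 and 36.7 CPM in MC tumours (log2 0.47, adjusted p = 0.059). Klf4, Klf6 and Junb, further transcription factor genes of the list, had log2 changes of 0.65, 0.45 and 0.34 (adjusted p = 0.0718, 0.0915 and 0.161), and Ier3 the lowest, 0.01. With the replicate block Zfp36 and Klf4 were called too, against 1.75% of all genes called higher. The phosphatase genes Dusp5, Dusp7 and Dusp9 were called higher. Dusp5, the nuclear ERK phosphatase gene, was at 24.9, 27.2 and 24.3 CPM in HC tumours and 16.5, 15.3 and 14.7 CPM in MC tumours (log2 0.71, adjusted p = 0.0318). Dusp7 and Dusp9, which encode phosphatases acting on ERK in the cytoplasm, rose by 0.60 and 0.86 (adjusted p = 0.0318 each). The 3 Dusp genes were chosen after their values were seen, as was Sfn, the gene of 14-3-3 sigma, which rose by 0.77 (adjusted p = 0.0403).

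The oxygen-sensing genes themselves were not called. Egln1, which encodes PHD2, was at 128, 184 and 177 CPM in HC tumours and 149, 172 and 162 CPM in MC tumours. The groups overlapped, with a log2 change of 0.02 (SE 0.14, adjusted p = 0.966), a value whose sign turned without HC2, HC3 or MC1 (-0.08, -0.05 and -0.03) and on the FPKM scale. Egln2 and Egln3, which encode the other PHD enzymes, had log2 changes of -0.12 and -0.44 (adjusted p = 0.613 and 0.403). Egln3, itself a HIF target, ranged from 119 to 237 CPM in HC tumours and from 196 to 276 CPM in MC tumours. Hif1a averaged 273 ± 38.7 CPM in HC tumours and 298 ± 38.9 CPM in MC tumours (SD, n = 3 each, log2 -0.13, adjusted p = 0.682). Epas1, the gene of the subunit HIF-2 alpha, was at 61.7, 40.6 and 38.8 CPM in HC tumours and 34.0, 37.3 and 29.5 CPM in MC tumours (log2 0.48, adjusted p = 0.242).

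Among the HIF targets on the lists used here, 1 rose. Of 24 targets outside glycolysis, Angptl4 was the 1 called, 12 had a positive and 12 a negative log2 change, and the median was 0.02, with a range of -0.15 to 0.25 over the fits that left out 1 tumour. The collagen crosslinking enzyme gene Lox was at 288, 274 and 217 CPM in HC tumours and 189, 177 and 122 CPM in MC tumours (log2 0.68, adjusted p = 0.127), and it was called with the replicate block. Ddit4, an mTOR inhibitor gene, had a log2 change of -0.25, Ankrd37 one of -0.56, Fam162a one of -0.22 and the lysyl hydroxylase gene Plod2 one of 0.22, and none of the 4 was called. Of 22 glycolysis genes, 0 were called, and the median was 0.05, with a range of -0.05 to 0.22. The glucose transporter gene Slc2a1 had the highest change, 0.38 (adjusted p = 0.471), and the aldolase gene Aldoc the lowest, at 35.3, 60.3 and 55.7 CPM in HC tumours and 74.1, 86.7 and 89.7 CPM in MC tumours (log2 -0.73, adjusted p = 0.126). Aldoc was called lower with the block. HC1 had the lowest summed level of both lists among the 6 tumours, 2331 CPM for the targets outside glycolysis and 6928 CPM for glycolysis.

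Stc1, which encodes stanniocalcin-1, a secreted protein induced by HIF in many cells, fell. Stc1 is not on the lists of HIF targets and glycolysis above. Its levels were 20.04, 23.4 and 19.5 CPM in HC tumours and 47.1, 67.2 and 50.4 CPM in MC tumours. The highest HC tumour was below each MC tumour, and the log2 change was -1.39 (SE 0.14, adjusted p = 0.0307). Dio2, which encodes the enzyme that converts thyroxine to active thyroid hormone, averaged 13.6 ± 2.42 CPM in HC tumours and 39.7 ± 11.8 CPM in MC tumours (SD, n = 3 each, log2 -1.55, SE 0.21, adjusted p = 0.0318). Sesn3, a sestrin gene that restrains mTOR signalling, was at 34.3, 44.4 and 49.2 CPM in HC tumours and 76.5, 96.8 and 99.96 CPM in MC tumours (log2 -1.09, adjusted p = 0.0318). Slc4a8, a bicarbonate transporter gene involved in pH control, was among the genes that rose, at 14.9, 11.3 and 12.6 CPM in HC tumours and 5.61, 5.95 and 4.34 CPM in MC tumours (log2 1.28, SE 0.17, adjusted p = 0.0318).

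**Figure D3:**
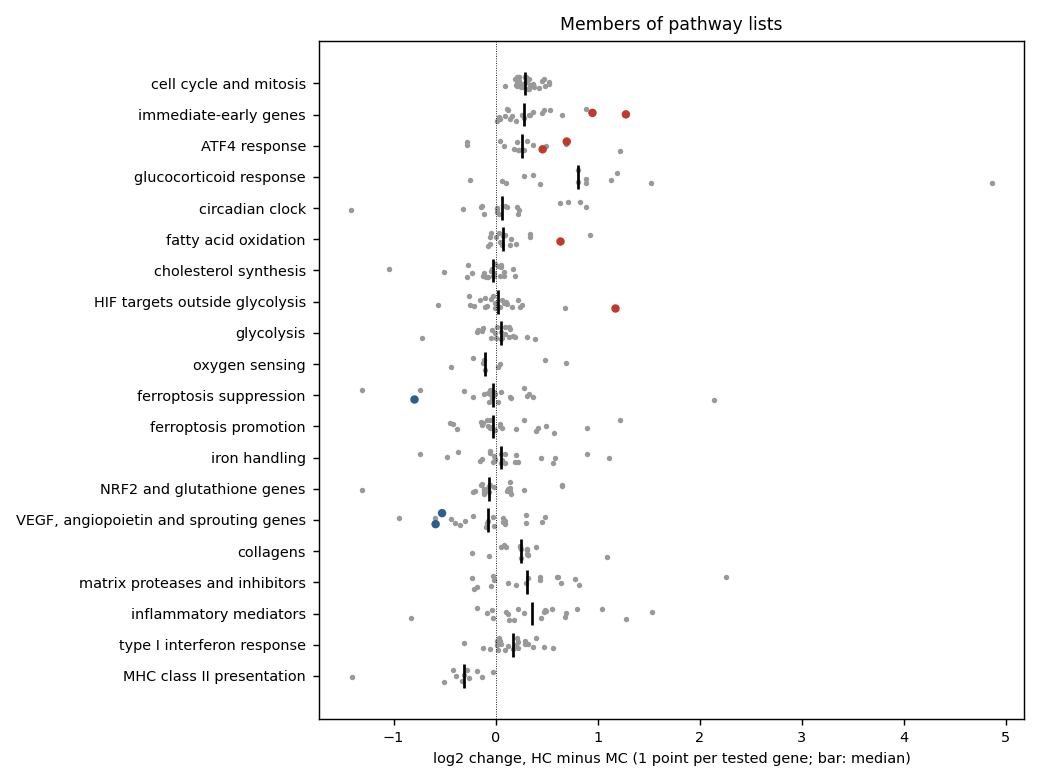
Each row is a pathway list and each point a tested member, with its log2 change, HC minus MC, on the x axis; black bars are list medians and coloured points are genes called higher (red) or lower (blue). Points of cell cycle and of immediate-early genes all lie above 0, whereas oxygen sensing, HIF targets and glycolysis lie on both sides of it.

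Regulators of Wnt and growth-factor signalling were among the genes that fell. Lef1, a transcription factor gene of the Wnt pathway that is also expressed in T cells, was at 0.99, 1.20 and 1.31 CPM in HC tumours and 3.89, 5.47 and 6.33 CPM in MC tumours. Every HC tumour was lower, with a log2 change of -2.16 (SE 0.26, adjusted p = 0.0307). Tle2, a co-repressor gene that works with such factors, averaged 6.00 ± 0.34 CPM in HC tumours and 13.3 ± 1.80 CPM in MC tumours (SD, n = 3 each, log2 -1.15, adjusted p = 0.0318). Pdgfc, a growth factor gene for fibroblasts and pericytes, was at 20.9, 22.2 and 23.03 CPM in HC tumours and 39.4, 42.3 and 59.7 CPM in MC tumours (log2 -1.10, adjusted p = 0.034). Igfbp3, which encodes a binding protein that holds insulin-like growth factors, was at 316, 284 and 278 CPM in HC tumours and 456, 569.6 and 519 CPM in MC tumours. Igfbp3, chosen after its values were seen, had a log2 change of -0.81 (SE 0.10, adjusted p = 0.0307).

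The basement membrane collagen gene Col4a5 was at 21.5, 30.1 and 28.5 CPM in HC tumours and 53.9, 61.6 and 66.3 CPM in MC tumours, a log2 change of -1.18 (SE 0.14, adjusted p = 0.0307). By contrast Lama3, a laminin chain gene of the epithelial basement membrane, rose to 191, 165 and 182 CPM in HC tumours, against 96.8, 87.7 and 56.5 CPM in MC tumours (log2 1.16, SE 0.18, adjusted p = 0.0462). Klk10, a secreted protease gene of epithelia, was at 8.54, 4.90 and 6.43 CPM in HC tumours and 2.20, 1.87 and 1.17 CPM in MC tumours (log2 1.92, SE 0.30, adjusted p = 0.0483). The 16 collagens on a list that does not hold Col4a5 had a median of 0.25 with 0 called, or 0.10 without HC1 and 0.11 without MC3. Summed fibroblast markers were highest in HC1, at 6751 CPM, and overlapped between the groups, from 4559 CPM in HC tumours and from 3586 to 4932 CPM in MC tumours. Klhl33 and Lrrc75b also fell, by 1.81 and 1.14 on the log2 scale (adjusted p = 0.0318 each).

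Of 14 genes of the mesenchymal state, Tgfb3 was the 1 called. This growth factor gene was at 107, 104.5 and 107 CPM in HC tumours and 143, 157 and 175 CPM in MC tumours (log2 -0.57, adjusted p = 0.0393). Further genes that fell were the transcription factor genes Foxc1 and Nr2f1 (log2 -0.80 and -1.04), the small GTPase gene Rhou (-0.63), the actin-associated protein gene Lmo7 (-0.80), the protease gene Bace1 (-0.55) and the predicted gene Gm5148 (-1.51). The growth factor gene Gdf3 was called lower on few counts, at 0.0619, 0.179 and 0.0784 CPM in HC tumours and 1.46, 0.911 and 2.08 CPM in MC tumours. Further genes that rose were Spsb1 (0.56), Gcnt2 (0.64), Fam110c (0.81), Prxl2a (0.64), Wfdc21 (1.97) and the chromatin protein gene Hmga1b (0.84). The serotonin transporter gene Slc6a4 was called higher, at 1.02, 2.60 and 1.49 CPM in HC tumours and at most 0.177 CPM in MC tumours. Slc6a4 and Nrg4 passed the filter on low counts through HC tumours alone and Gdf3 through MC tumours alone. Reads of Hmga1b may be shared with its near-identical relative Hmga1. Tgfb3 apart, the genes from Foxc1 to Slc6a4 were chosen after their values were seen, with adjusted p from 0.0307 to 0.048.

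Among vessel genes 2 fell. Of 22 genes of VEGF, angiopoietin and sprouting, 2 were called lower and 0 higher, against 0.176% and 0.25% of all genes. The median was -0.08. Without HC1, HC2 or HC3 it was -0.15, -0.23 or -0.15, and without MC2 it was -0.03. Cd93, a receptor gene of sprouting endothelium, was at 72.2, 63.9 and 73.5 CPM in HC tumours and 102, 98.6 and 101 CPM in MC tumours (log2 -0.53, SE 0.08, adjusted p = 0.0352). Vash1, whose product is secreted by endothelium and restrains vessel growth, was at 22.3, 23.8 and 22.2 CPM in HC tumours and 33.0, 32.5 and 37.3 CPM in MC tumours (log2 -0.59, SE 0.09, adjusted p = 0.04). The VEGF co-receptor gene Nrp1 was at 94.3, 66.1 and 66.7 CPM in HC tumours and 144, 118 and 175 CPM in MC tumours (log2 -0.95, adjusted p = 0.0755). The adhesion gene Mcam and the Notch ligand gene Dll4 had log2 changes of -0.40 and -0.44 (adjusted p = 0.0875 and 0.0973), and Nrp2 and Angpt1 of 0.45 and 0.48 (adjusted p = 0.205 and 0.265). Nrp1 and Mcam were called with the replicate block as well, against 1.2% of all genes called lower. The 18 general markers of endothelium had a median of -0.04 with 0 called, and their summed level was 536 to 699.6 CPM in HC tumours and 584 to 589.6 CPM in MC tumours.

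Hemoglobin genes rose in all HC tumours. Hba-a1, an alpha-globin gene, was at 28.9, 15.8 and 16.9 CPM in HC tumours and 4.97, 5.16 and 5.13 CPM in MC tumours, with a log2 change of 2.01 (SE 0.23, adjusted p = 0.0307). Hbb-bs, a beta-globin gene, was at 56.9, 30.1 and 29.9 CPM in HC tumours and 11.4, 11.3 and 10.9 CPM in MC tumours (log2 1.80, SE 0.24, adjusted p = 0.0318). HC1 was highest in both, and MC tumours were nearly alike. Alas2, the first enzyme gene of heme synthesis in red cell precursors, was at 5.94, 3.29 and 3.79 CPM in HC tumours and 1.34, 0.76 and 0.838 CPM in MC tumours (log2 2.14, adjusted p = 0.048). The near-identical copies Hba-a2 and Hbb-bt had log2 changes of 2.101 and 1.54 (adjusted p = 0.0766 and 0.0876), and how reads were divided between copies is not given in the sources used here.

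Of 13 erythroid markers, 5 passed the filter on low counts, and 3 of them were called, all higher, against 0.25% of all genes. The other 8 had 0 to 14 counts in every library, and the red-cell genes Epb42 and Hemgn had 0 in all 3 MC tumours and in 2 of 3 HC tumours. The summed erythroid level was 57.4 to 106 CPM in HC tumours and 19.96 to 21.6 CPM in MC tumours, and the share of it that red cells in blood vessels contribute was not tested. The promoters of Hba-a1 and Hbb-bs are shown because both globin genes were called. They are chr11:32283422-32283721 on the plus strand and chr7:103827879-103828178 on the minus strand of GRCm38.p6, from RefSeq, with a CCAAT box in capitals. The box began 88 bases before the start of Hba-a1 and 76 bases before that of Hbb-bs. On either strand, 42.5% of tested genes with a promoter held CCAAT, as did 13 of 29 called higher (44.8%) and 4 of 17 called lower (23.5%).
Hba-a1: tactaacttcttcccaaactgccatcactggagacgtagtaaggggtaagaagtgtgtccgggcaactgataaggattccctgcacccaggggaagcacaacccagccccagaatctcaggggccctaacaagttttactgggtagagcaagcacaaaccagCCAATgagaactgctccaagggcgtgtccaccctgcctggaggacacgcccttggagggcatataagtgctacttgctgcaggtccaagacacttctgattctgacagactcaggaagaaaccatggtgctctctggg
Hbb-bs: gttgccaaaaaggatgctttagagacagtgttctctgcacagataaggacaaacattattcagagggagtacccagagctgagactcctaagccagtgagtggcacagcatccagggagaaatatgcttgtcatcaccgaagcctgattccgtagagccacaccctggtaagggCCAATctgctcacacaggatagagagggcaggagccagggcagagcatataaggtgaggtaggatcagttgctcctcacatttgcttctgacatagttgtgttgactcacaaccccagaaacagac

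Cxcl1, a gene for a neutrophil-attracting chemokine, rose in HC tumours. Its levels were 19.6, 25.1 and 44.6 CPM in HC tumours and 8.76, 9.19 and 8.66 CPM in MC tumours, a log2 change of 1.75 (SE 0.27, adjusted p = 0.0482). Of the 7 tested genes of neutrophil-attracting chemokines and growth factors, this was the 1 called. Csf3, the gene of granulocyte colony-stimulating factor, was at 42.3, 82.7 and 74.2 CPM in HC tumours and 30.2, 40.2 and 28.3 CPM in MC tumours (log2 1.01, adjusted p = 0.114). Csf3 was called with the replicate block. Cxcl2, Cxcl3 and Cxcl5 had log2 changes of 1.54, 1.30 and 1.07 with groups that overlapped (adjusted p = 0.34 to 0.413), and HC1 had the lowest Cxcl2 of all 6 tumours, 1.14 CPM. The macrophage growth factor gene Csf1 had the lowest change, -0.20 (adjusted p = 0.455).

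The promoter of Cxcl1, chr5:90890995-90891294 on the plus strand of the same build, is shown for an exact match to a 10-base kappa B motif, which NF-kappa B proteins bind. The motif lay on the reverse strand, so that the capitals give its complement, and began 70 bases before the start. The same motif, on either strand, was found in 16 of 11508 tested genes with a promoter (0.139%), in 1 of 29 called higher and in 0 of 17 called lower.
Cxcl1: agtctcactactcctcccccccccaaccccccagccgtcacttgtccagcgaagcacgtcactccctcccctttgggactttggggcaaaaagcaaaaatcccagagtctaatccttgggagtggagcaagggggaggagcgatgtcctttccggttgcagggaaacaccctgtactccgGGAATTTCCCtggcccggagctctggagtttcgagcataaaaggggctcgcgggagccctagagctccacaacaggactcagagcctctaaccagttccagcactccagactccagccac
Among 22 inflammatory mediators 0 were called, and the median was 0.36, or 0.10 without HC2. The interleukin gene Il1a was at 32.9, 61.9 and 48.0 CPM in HC tumours and 18.8, 19.5 and 11.2 CPM in MC tumours (log2 1.53, adjusted p = 0.0623). Nfkbia, the gene of an NF-kappa B inhibitor that NF-kappa B itself induces, was at 77.7, 107 and 104 CPM in HC tumours and 54.8, 64.5 and 59.98 CPM in MC tumours (log2 0.69, adjusted p = 0.0747). Both were called with the block, against 1.75% of all genes called higher. Tnfaip3, Lif and Nos2 had log2 changes of 0.44, 0.48 and 1.28 and Il33 one of -0.83, none of them called.

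Neutrophil markers overlapped between the groups. Their summed level was 345, 770 and 1037 CPM in HC1, HC2 and HC3, against 442, 627 and 773 CPM in MC1, MC2 and MC3. Of 20 markers, 18 had a positive log2 change, the median was 0.73 and 0 were called. The collagenase gene Mmp8 was at 8.82, 12.0 and 33.1 CPM in HC tumours and 3.33, 4.63 and 3.28 CPM in MC tumours (log2 2.26, adjusted p = 0.0966), and the calprotectin gene S100a8 at 13.8, 49.4 and 75.7 CPM and 12.1, 16.2 and 15.3 CPM (log2 1.67, adjusted p = 0.167). Mmp8 was called with the block. Chil3, which neutrophils also express, was at 86.5, 37.2 and 73.8 CPM in HC1, HC2 and HC3. The share of it that neutrophils contribute was not tested.

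Markers of mast cells and of dendritic cells mostly had negative log2 changes, with 0 called. The 10 mast cell and basophil markers in the table summed to 33.7, 36.0 and 40.4 CPM in HC tumours and 70.6, 52.9 and 65.8 CPM in MC tumours, without overlap. Of the 9 tested, 8 had a negative log2 change and the median was -1.11, or -0.69 without HC1. The carboxypeptidase gene Cpa3 was at 1.05, 1.43 and 1.70 CPM in HC tumours and 5.30, 2.71 and 5.64 CPM in MC tumours (log2 -1.70, adjusted p = 0.0875). The tryptase gene Tpsb2 and the chymase genes Mcpt4 and Cma1 had log2 changes of -1.68, -1.37 and -1.22 (adjusted p = 0.0902 to 0.111). With the replicate block Cpa3, Tpsb2 and Mcpt4 were called, against 1.2% of all genes called lower.

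Of 13 dendritic cell markers, 12 had a negative log2 change, with a median of -0.98, or -0.49 without HC3 and -0.53 without MC1. Ccr7, the receptor gene that takes these cells to lymph nodes, was at 1.33, 1.91 and 1.26 CPM in HC tumours and 4.04, 3.47 and 3.46 CPM in MC tumours (log2 -1.28, adjusted p = 0.0874). The chemokine gene Ccl22 had a log2 change of -1.60, and Flt3 and Clec9a, which mark dendritic precursors and cross-presenting cells, of -1.09 and -2.45 (adjusted p = 0.0976 to 0.176). Ccr7 and Ccl22 were called with the block, against 1.2% of all genes called lower. The sum of the list, which more abundant and less specific genes dominate, overlapped, at 748 to 893 CPM in HC tumours and 822 to 887 CPM in MC tumours. All 11 genes of antigen presentation on MHC class II had a negative log2 change, with a median of -0.32, or -0.48 without HC2, and 0 called. H2-Ab1 was at 303, 397 and 309.7 CPM in HC tumours and 428, 426 and 496 CPM in MC tumours (log2 -0.42, adjusted p = 0.155).

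**Figure D4:**
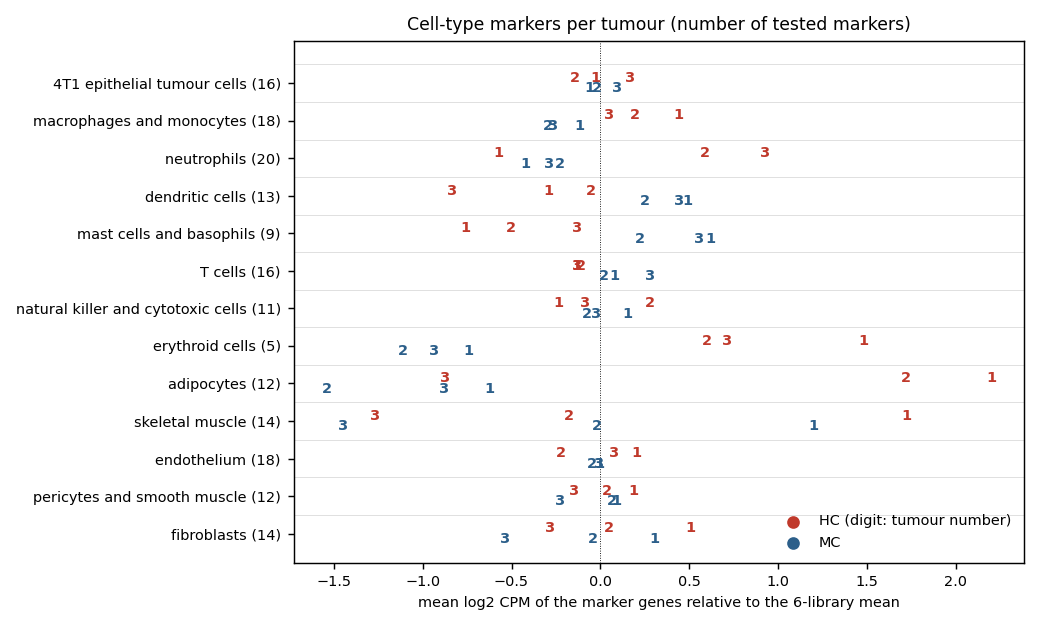
Each row is a list of cell-type markers, with the number of tested markers in brackets, and each digit is 1 tumour of HC (red, upper) or MC (blue, lower). The x axis is the mean log2 CPM of the markers relative to the mean of the 6 libraries. HC scores lie above MC scores for erythroid cells and macrophages and below them for dendritic, mast and T cells. Fat-cell scores are high in HC1 and HC2 alone. The macrophage score includes Chil3, whose log2 change of 6.62 is the highest of its 18 markers, and the median of these markers is -0.22.

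Among lymphocyte genes Tigit rose and Lef1 fell. Tigit, an inhibitory receptor gene of T and natural killer cells, was at 29.0, 39.8 and 27.2 CPM in HC tumours and 14.5, 16.2 and 11.1 CPM in MC tumours, a log2 change of 1.20 (SE 0.18, adjusted p = 0.0455). Of 13 immune checkpoint genes this was the 1 called. Btla, another inhibitory receptor gene, was at 0.588, 0.561 and 0.418 CPM in HC tumours and 2.37, 1.44 and 2.11 CPM in MC tumours (log2 -1.92, adjusted p = 0.0611) and was called with the replicate block. Ctla4 had a log2 change of 1.03, Cd86 one of -0.63 and Vsir one of -0.44 (adjusted p = 0.123 to 0.176). Among 16 T cell markers Lef1 was the 1 called, and the median was -0.06. Cd4 and Foxp3, which mark helper and regulatory T cells, had log2 changes of -1.19 and -1.43, and Cd8a, of cytotoxic T cells, one of 0.50 (adjusted p = 0.132 to 0.23). The summed T cell level overlapped, at 80.3 to 88.5 CPM in HC tumours and 81.5 to 97.3 CPM in MC tumours, whereas the mean log2 scores did not, at -0.135 to -0.108 in HC tumours and 0.0189 to 0.277 in MC tumours. The median of the list was -0.14 to 0.04 with 1 tumour left out.

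For type I interferon response genes, 20 of 23 had a positive log2 change, with a median of 0.17 and 0 called, and the groups did not overlap for 10, all higher, against 11% of all genes. The ubiquitin-like gene Isg15 was at 88.2, 88.5 and 88.3 CPM in HC tumours and 71.9, 68.5 and 71.97 CPM in MC tumours (log2 0.32, adjusted p = 0.0874). Without MC2 the median of the list was 0.09.

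Of genes of ferroptosis, an iron-dependent death by lipid oxidation, Scd2 was the 1 called. Slc7a11, the cystine importer gene, was at 14.1, 21.3 and 26.2 CPM in HC tumours and 48.8, 27.2 and 77.0 CPM in MC tumours. The groups did not overlap, but the difference was not called (log2 -1.31, SE 0.36, adjusted p = 0.144). Gpx4, whose enzyme reduces lipid peroxides, had a log2 change of -0.06 (SE 0.11, adjusted p = 0.833), which turned to 0.03 without MC3. Acsl4, whose enzyme places polyunsaturated fatty acids into membranes, had one of -0.15 (SE 0.10, adjusted p = 0.538). Scd2 belongs to 24 genes that suppress ferroptosis, whose median was -0.03. Of 24 that promote it, 0 were called in either direction, and the median was -0.02. Among these, Chac1, Slc1a5 and Tfrc were called higher and Fads2, a desaturase gene, lower with the replicate block, against 1.75% and 1.2% of all genes.

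Tfrc, the receptor gene of iron uptake, was at 141, 145 and 144 CPM in HC tumours and 82.8, 92.4 and 55.6 CPM in MC tumours. The difference of 0.90 on the log2 scale did not pass (SE 0.16, adjusted p = 0.0718) but did with the replicate block (adjusted p = 0.0218, with a range of 1.11e-05 to 0.292 over all settings). Among 24 tested genes of iron handling 0 were called and the median was 0.05. Slc39a14, Steap3 and Steap1, genes for a metal transporter and for metal reductases, had log2 changes of 0.44, 0.56 and 0.58 (adjusted p = 0.107 to 0.164), all with groups that did not overlap. Of the 24, 6 had HC above MC without overlap and 1 had HC below MC, against 11% and 10.9% of all genes. Steap4, the highest of the list at 1.11, was called with the block. Slc40a1, the iron exporter gene, was at 4.08, 4.08 and 4.31 CPM in HC tumours and 7.30, 4.48 and 9.12 CPM in MC tumours (log2 -0.74, adjusted p = 0.215). Hmox1, whose enzyme breaks down heme, was at 67.6, 91.7 and 94.8 CPM in HC tumours and 70.04, 66.1 and 57.5 CPM in MC tumours (log2 0.39, adjusted p = 0.216).

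Of 14 genes that glucocorticoid hormones induce, 13 had a positive log2 change and 0 were called. The groups did not overlap, HC above MC, for 8 of the 14, against 11% of all genes, and the median was 0.80. With 1 tumour left out the median was 0.56 to 0.98, lowest without HC1, and on the log2(FPKM + 1) scale it was 0.46. The metallothionein gene Mt1 was at 179.8, 167 and 239 CPM in HC tumours and 90.4, 120.2 and 106 CPM in MC tumours (log2 0.89, adjusted p = 0.0611). Zbtb16, a transcription factor gene strongly induced by these hormones, was at 8.23, 1.30 and 1.88 CPM in HC tumours and 0.152, 0.152 and 0.0762 CPM in MC tumours (log2 4.87, adjusted p = 0.0611), a difference that rests on 3 to 6 counts in each MC tumour. Hsd11b1, whose enzyme regenerates active glucocorticoid, was at 16.2, 9.95 and 8.39 CPM in HC tumours and 4.75, 4.08 and 3.20 CPM in MC tumours (log2 1.52, adjusted p = 0.0658). Fkbp5, which encodes a partner of the receptor, was at 309.2, 193 and 277 CPM in HC tumours and 141, 170.3 and 135 CPM in MC tumours (log2 0.80, adjusted p = 0.0976). With the block 5 of the 14 were called higher, Mt1, Zbtb16, Hsd11b1, Per1 and Tsc22d3, against 1.75% of all genes; Zbtb16 passed the filter on low counts through HC tumours alone. Zbtb16 and Hsd11b1 were highest in HC1, which also had the highest sum of fat-cell markers; the part of fat cells in these levels was not tested.

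Clock genes were not called, and the median of 18 was 0.06. The repressor genes Cry1, Per1 and Per2 had log2 changes of 0.63, 0.88 and 0.71 (adjusted p = 0.0611 to 0.145), and Hlf one of -1.42 at levels under 1 CPM. Cry1 and Per1 were called with the block, against 1.75% of all genes called higher. The hour at which tumours were taken is not given in the sources used here.

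Of 33 cell division genes, 0 were called and all had a positive log2 change, from 0.09 for E2f1 to 0.52 for the kinesin gene Cenpe, with a median of 0.29. The groups did not overlap for 4 of the 33, all higher, against 11% of all genes. Summed levels overlapped, at 3991, 4539 and 3350 CPM in HC1, HC2 and HC3 and 3466, 3572 and 2605 CPM in MC1, MC2 and MC3. Foxm1, a transcription factor gene of mitosis, was at 83.5, 103 and 72.7 CPM in HC tumours and 68.4, 66.8 and 45.4 CPM in MC tumours (log2 0.52, adjusted p = 0.212). MC3 was the lowest tumour, and with the replicate block 7 genes were called higher, against 1.75% of all genes. The median was 0.17 without HC2 and 0.16 without MC3. Ccnd2, a D-type cyclin gene, fell, at 57.7, 66.5 and 61.0 CPM in HC tumours and 89.3, 84.6 and 86.3 CPM in MC tumours (log2 -0.49, SE 0.08, adjusted p = 0.0455). Cdkn1a, the p21 inhibitor gene, had a log2 change of 0.47 (adjusted p = 0.114). Ribosomal protein genes and nuclear genes of the respiratory chain had medians of -0.05 and -0.03 with 0 called.

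Mice given IOX2 allow the same genes to be read in tumours that share no sample with those above. Of the 63 called genes, 58 had the same direction in HI against MI (92.1%), compared with 56.5% of all genes. Among these, 25 had an unadjusted p under 0.05 there (39.7%), compared with 6.32% of all genes. By edgeR, 0 genes were called in HI against MI (0% of 14774, with 9.15% at an unadjusted p under 0.05). The median log2 change of the 37 genes that rose was 0.95 with vehicle and 0.48 with IOX2, and that of the 26 that fell was -1.10 with vehicle and -0.63 with IOX2. Without HI1, 43 of the 63 had the same direction, and without any other single tumour of these groups 54 to 62 did.

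Globin and chemokine genes had changes of the same sign in both settings. With IOX2, Hba-a1 had a log2 change of 1.03 (unadjusted p = 0.00367), Hbb-bs one of 1.08, Cxcl1 one of 1.61 and Klk10 one of 1.69. Vash1 and Cd93 had changes of -0.75 each (unadjusted p = 0.00019 and 0.000363), and Lef1 and Igfbp3 of -1.73 and -1.24. Of the myeloid genes described above, Mrc1, Tfec and Cd300lf had changes of -0.08, -0.04 and 0.10 with IOX2, F7, Wfdc17 and Atp6v0d2 of 0.48, 0.45 and 0.69, and Gpr183, Cx3cr1 and Cd72 of -0.07, -0.24 and -0.63. Of the lipid genes, Angptl4 was at 0.05, Scd2 at 0.10, Acaa2 at 0.20, Plin2 at 0.29 and Acsbg1 at 0.94 (unadjusted p = 0.0248 for Acsbg1). Chil3 was at 154, 35.3 and 3.87 CPM in HI tumours and 41.0, 2.04 and 4.31 CPM in MI tumours, so that the groups overlapped (log2 2.04, unadjusted p = 0.19).

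The 5 called genes with opposite signs in the 2 settings were Mrc1, Scd2, Egr1, Spsb1 and Tfec, all within 0.10 of 0 with IOX2. Whether the effect of altitude differed between vehicle and IOX2 was tested as an interaction over all 12 libraries. It was called for 0 genes (0%, with 8.08% at an unadjusted p under 0.05). Of the 63 genes, 20 had an unadjusted interaction p under 0.05, the smallest for Tfec (0.000966), Gpr183 (0.00162) and Scd2 (0.00175), each with an adjusted p of 0.605. A difference between the settings is therefore not shown for any named gene.

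**Figure D5:**
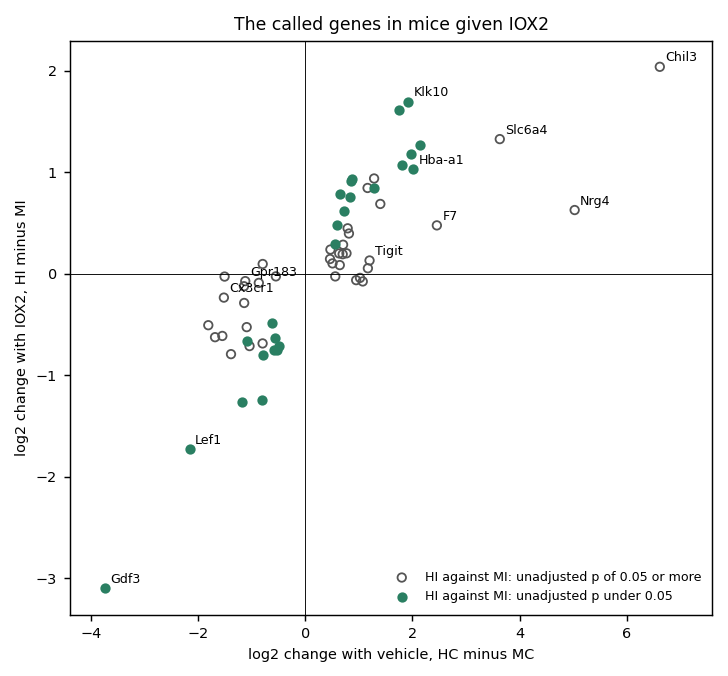
Each point is 1 of the 63 genes called with vehicle, with its log2 change there (HC minus MC) on the x axis and its log2 change in mice given IOX2 (HI minus MI) on the y axis. Filled points have an unadjusted p under 0.05 in HI against MI; 58 of 63 have changes of the same sign on both axes.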

How the data were processed

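Per the labels, RNA of 12 tumours was sequenced. The authors deposited raw gene counts and FPKM values per tumour. Build GRCm39, HISAT2 2.1.0, fastp 0.20.1, R 3.5.1, DESeq2 1.22.2 and HTSeq 0.11.2 are named, per the submitters' processing notes. The notes give no roles, annotation or strand setting, so antisense and overlapping genes may share reads. Here, counts of HC and MC were tested with edgeR 4.0.16 in R 4.3.3 (TMM factors, quasi-likelihood, 1 mean per group, Benjamini-Hochberg over 14774 genes, adjusted p under 0.05). As a check of the code, the fit was run on counts simulated for independent tumours. Such counts lack the correlation of same-numbered tumours given below, so the run cannot show how the calls fare under it. FPKM served to set levels of different genes side by side and in an alternative with limma 3.58.1. Levels elsewhere are TMM-scaled CPM, and 3 counts, the most a count of 0 allows, equal 0.0757 to 0.0948 CPM. Floors cover counting error only, whereas the SDs and SEs given include the spread between tumours.

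Same-numbered HC and MC tumours had correlated deviations from their group means (0.303, 0.17 and 0.236, other pairs at most 0.0265), so a replicate block was an alternative. The block thus rests on the values that were tested, and its p-values may be too small. Deviations within a group sum to 0, so the lower values of the other pairs are not separate support for a pairing. The labels name no pairing. DESeq2 1.42.0 and limma-voom were other alternatives. No 2 libraries were alike within counting error.

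The genes named include 11 genes fixed by name. The 12 largest rises and falls come from called genes of at least 5 CPM with groups that do not overlap. Up to 6 members per list with the smallest p, plus its extremes, were added. Not every gene the rule covers is reported here. The comparison, the 53 lists (833 genes, 783 tested) and the rule were chosen with earlier results of these data known. Lists were described and not tested. Promoters come from RefSeq (GRCm38.p6), for 46 of 63 called genes.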

Additional observations from a re-analysis of the deposited data

How the results depend on the processing

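The count of 63 called genes was 0 with all 12 libraries, 831 with DESeq2, 436 with the replicate block (259 higher and 177 lower), 341 with no filter on low counts, 28 with limma on log2(FPKM + 0.1) and 1 with limma on log2(FPKM + 1). It was 6 to 44 when 1 tumour was left out. limma-voom gave 44, DESeq2 size factors 62, library totals 63 (32 higher and 31 lower), a minimum of 1 CPM in 3 libraries 60 and a robust prior 58. The cause was not tested. The median log2 change of all genes tested, HC against MC, was -0.00211; it was -0.0113 with library totals, 0.00663 with no filter, -0.00768 and -0.0121 on the FPKM scale with 1 and 0.1 added, and -0.00462 to 0.005 without 1 tumour. Egln1 changed sign on the FPKM scale (-0.00615 and -0.00655) and without HC2, HC3 or MC1 (-0.0757, -0.0468 and -0.0347; -0.0757 to 0.168 over the 6 tumours left out), and Gpx4 without MC3 (0.028; -0.163 to 0.028). Of the 11 genes fixed by name, Tfrc was called with DESeq2, with no filter and with the block; the block lost none of the 63 and turned none round. The interaction gave 0 calls under each setting tried. With 3 tumours a group and a floor near 0.08 CPM, changes of low genes such as Nrg4 and Gdf3 rest on few counts. The settings for the interaction and for mice given IOX2 were chosen after seeing the data.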

Other observations

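Genes of matrix breakdown gave 0 calls among 18, with 12 positive log2 changes and a median of 0.31, and 4 were called higher with the replicate block, against 1.75% of all genes. The median was 0.10 without HC2 and 0.13 without MC3. Plau, the urokinase gene, was at 449.8, 318 and 301 CPM in HC tumours and 255, 241 and 188 CPM in MC tumours (log2 0.64, adjusted p = 0.133). Its receptor gene Plaur was at 106, 146 and 129 CPM in HC tumours and 90.5, 89.8 and 70.1 CPM in MC tumours (log2 0.60, adjusted p = 0.108). Mmp13 and Mmp2 had log2 changes of 0.78 and 0.61 with groups that overlapped. Vwf, the von Willebrand factor gene of endothelium, was at 37.0, 22.2 and 34.6 CPM in HC tumours and 17.2, 12.4 and 19.99 CPM in MC tumours (log2 0.92, adjusted p = 0.121), and C3, a complement gene, had a log2 change of 0.72 (adjusted p = 0.136). Both were called with the block. The Notch target gene Hey1 had a log2 change of -1.17, and the BMP inhibitor gene Smad6 one of -0.62, at 6.87, 7.86 and 7.74 CPM in HC tumours and 10.8, 12.1 and 11.7 CPM in MC tumours (adjusted p = 0.114 and 0.0939). The 13 Notch genes and 15 BMP genes had medians of -0.01 and -0.10 with 0 called.

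With 0 called in each, medians were -0.08 over 16 heme genes, -0.07 over 23 NRF2 and glutathione genes, 0.09 over 13 heat shock genes, 0.04 over 13 mitochondrially encoded genes and -0.03 over 14 genes of MHC class I. Of marker lists, medians were 0.15 (0.02 to 0.26 with 1 tumour left out) over 11 tested markers of natural killer cells, -0.24 (-0.45 to 1.11) over 7 of lymphatic endothelium, 0.04 over 12 of pericytes, 0.34 (-0.66 to 1.07) over 14 of skeletal muscle, 0.33 (0.04 to 0.46) over 6 of skin, 0.11 (0.07 to 0.33) over 6 of nerve and -0.23 over 7 hormone receptor genes. Fewer than 6 markers passed the filter for platelets, eosinophils and B or plasma cells, and none of these was called. Of the eosinophil markers, Ear2 was at 3.25, 1.76 and 1.86 CPM in HC tumours and 0.53, 0.608 and 0.711 CPM in MC tumours (log2 1.88, adjusted p = 0.0741). The antibody joining chain gene Jchain was at 6.22, 14.6 and 4.91 CPM in HC tumours and 0.985, 4.10 and 1.68 CPM in MC tumours (log2 1.93, adjusted p = 0.166), and the B cell receptor gene Cd79b had at most 0.204 CPM in HC tumours and 1.219 CPM in MC tumours. The summed skin markers, which include keratin genes, were at 183 to 238 CPM in HC tumours and 147 to 177 CPM in MC tumours. Their mean log2 scores overlapped, at -0.592, 0.0709 and 0.648 in HC tumours and 0.137, -0.18 and -0.084 in MC tumours.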
